A study of Mus musculus with 4 samples.

Results

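Cell cycle and proliferation genes were examined in MLO-Y4 cells, an osteocyte-like line, with and without mechanical loading. The group held 42 named genes of the 55450 genes counted, 21 of which belong to the entry into and passage through DNA replication (G1/S) and 21 to the preparation for and execution of mitosis (G2/M). Members were found in the counts by gene symbol, and each symbol matched 1 gene. All 42 passed the filter on low counts and were among the 16269 genes tested.

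The study asked how loading alters transcription in osteocytes, and RNA was sequenced from 2 unloaded and 2 loaded samples of wild-type MLO-Y4 cells. Loaded cells grew on collagen-coated flexible silicone membranes and, from 60% confluency, were stretched equally in all directions by 20% at 0.5 Hz for 12 h in a Flexcell device. Unloaded cells stood in the same incubator for 12 h, but on ordinary rigid 6-well plates, so stretching cannot be told apart from the change of plate. The sources do not say that the 2 samples of a group were separate cultures, so p-values measure the spread between these samples, which may be technical.

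MLO-Y4 cells were derived from bone of mice carrying the SV40 large T antigen under the osteocalcin promoter, and they divide in culture, whereas osteocytes in bone do not. Large T antigen binds and inactivates the retinoblastoma protein and its relatives, the proteins that hold back entry into S phase. In the ordinary cycle, D-type cyclins with Cdk4 and Cdk6, then cyclin E with Cdk2, phosphorylate the retinoblastoma protein, which releases E2F factors to transcribe the replication genes. The genes of mitosis are transcribed later, when B-Myb, FoxM1 and the MuvB complex act on promoters that hold an element called CHR, and most of their mRNAs are abundant only in cells past S phase.

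Each library held 28941994 to 32185693 counts, at which the floor of 3 counts corresponds to 0.093 to 0.103 CPM, the count of a gene scaled to the library total, a limit that covers counting error only. Levels are given below as CPM after TMM scaling, and changes as the log2 fold change of loaded over unloaded cells from edgeR, with its standard error (SE). The 2 libraries of each group differed beyond counting noise, with a chi-square per degree of freedom of 17.6 in unloaded and 19 in loaded cells, so all 4 were kept as separate samples. Of the osteocyte markers, *Pdpn* lay at 143 and 151 CPM in unloaded and at 215 and 228 CPM in loaded cells (DESeq2 adjusted p = 2.2e-08, edgeR adjusted p = 0.0334), and *Gja1* and *Phex* were present in every library. The markers of mature osteocytes were nearly absent, with *Mepe* at 0 counts in every library, *Sost* at 4 counts in 1 library and *Dmp1* at 0.396 to 0.482 CPM. Of the macrophage markers, *Csf1r* lay between 1558 and 1584 CPM in all 4 libraries, while *Ptprc* and *Adgre1* had 3 and 4 counts in the first loaded library and 0 in the others. Endothelial *Pecam1* had at most 32 counts and *Cdh5* at most 2.1 CPM, and the epithelial, adipocyte and muscle markers had at most 10 counts in any library.

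Across the 42 members, the values were mostly slightly lower in loaded cells. No member passed the edgeR test at an adjusted p under 0.01, while DESeq2 called 3. The median log2 fold change was -0.13, with an interquartile range of -0.24 to -0.027, against a median of -0.0089 and a range of -0.20 to 0.16 over all tested genes. It was negative for 36 members and positive for 6, whereas 51.5% of all tested genes had a negative value. In 24 members (57.1%) both loaded libraries lay below both unloaded libraries, in 1 they lay above, and in 17 the groups overlapped. The corresponding shares of all tested genes were 24.5% below and 22.1% above. All tested genes include ones with far fewer counts than any member, such as *Dmp1*, and these shares were not matched for count. In bulk RNA, fewer cells in a given phase and less of an mRNA per cell cannot be told apart.

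**Figure D1:**
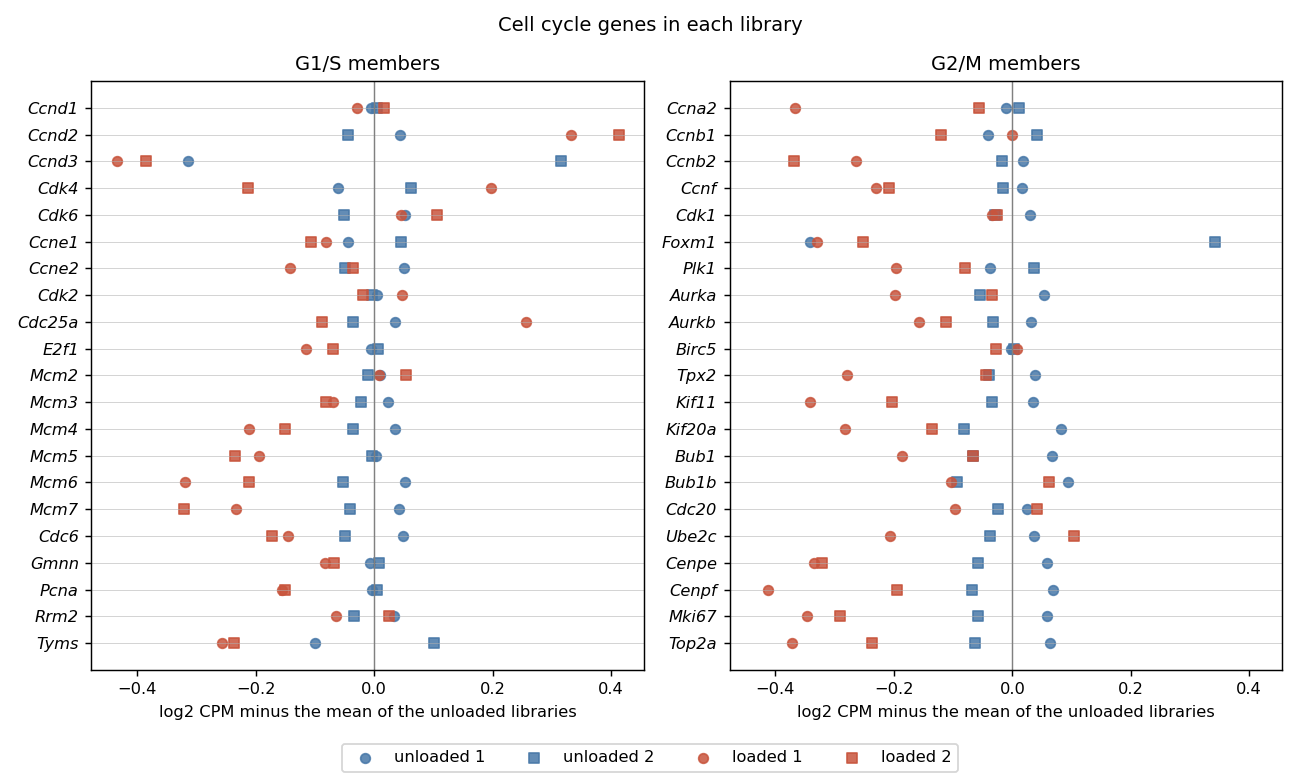
Level of each of the 42 members in each library, as log2 CPM minus the mean of the 2 unloaded libraries (horizontal axis), with G1/S members on the left and G2/M members on the right. Blue and red points stand for unloaded and loaded libraries. The points of *Mki67*, *Top2a*, *Cenpe* and *Mcm7* separate by group to the left of 0, those of *Ccnd2* to the right, and those of *Ccnd3* and *Foxm1* are spread by the second unloaded library.

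The study called genes at a DESeq2 adjusted p under 0.01. At the same threshold with edgeR, 0 of 42 members were called in either direction. The background was small as well, at 0.0123% of tested genes higher and 0.0861% lower. At 0.05 the count among members was also 0, against 0.338% higher and 0.565% lower over all genes. The smallest edgeR adjusted p of any member was 0.0916. Without adjustment, 13 members (31.0%) had p under 0.05 with a lower value and 1 had it with a higher value, beside 7.46% and 6.88% of all tested genes. That count of 13 dropped to 8 without the first loaded library and to 6 without the first unloaded library. With DESeq2, the tool the study's methods name for its differentially expressed genes, 3 members were called at 0.01: *Ccnd2* rose, and *Mki67* and *Cenpe* fell. DESeq2 called 1.36% of the genes it tested higher and 1.55% lower.

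The G2/M members leaned to lower values, though *Cdk1*, *Foxm1*, *Birc5*, *Bub1b*, *Cdc20* and *Ube2c* changed sign when a library was left out. All 21 had a negative log2 fold change with all libraries, with a median of -0.16 and a range of -0.33 to -0.0097. In 12 of them (57.1%) both loaded libraries lay below both unloaded ones, beside 24.5% of all tested genes, and in 9 the groups overlapped. Unadjusted p was under 0.05 with a lower value in 8 (38.1%), beside 7.46% of all tested genes. The sizes were modest, and only *Cenpe* and *Foxm1* stood more than 20% below the unloaded level.

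Of the 8, the smallest p-values belonged to *Mki67*, *Cenpe* and *Top2a*. *Mki67* encodes Ki-67, a coat protein of mitotic chromosomes used as the standard marker of proliferating cells, and it lies on chromosome 7 at 135689784 to 135716361, minus strand (GRCm38). It was at 1281 and 1182 CPM in unloaded libraries and at 967 and 1005 CPM in loaded ones. Both loaded values lay below both unloaded values. The means were 1231 ± 70.5 and 986 ± 26.9 CPM (SD, n = 2 each), a change of -19.9%. Its log2 fold change was -0.32 (SE 0.060, DESeq2 adjusted p = 0.00232, edgeR adjusted p = 0.0966), and omitting any 1 library gave between -0.38 and -0.25.

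*Top2a* encodes topoisomerase IIα, which untangles DNA so that sister chromosomes can part, and lies on chromosome 11 at 98992943 to 99024189, minus strand. It had almost the same levels as *Mki67*, at 1280.0 and 1173 CPM in unloaded and 947 and 1040 CPM in loaded libraries. The groups did not overlap, but the log2 fold change of -0.30 (SE 0.071) missed the threshold with both tools (DESeq2 adjusted p = 0.0104, edgeR adjusted p = 0.143). *Cenpe* encodes the kinesin CENP-E, which carries chromosomes to the middle of the spindle from their kinetochores, and lies on chromosome 3 at 135212537 to 135273611, plus strand. It was at 404 and 373 CPM in unloaded and 308 and 310.4 CPM in loaded libraries. The loaded pair was tight and below both unloaded values, with a log2 fold change of -0.33 (SE 0.065, DESeq2 adjusted p = 0.00505, edgeR adjusted p = 0.105). *Cenpf*, for a large kinetochore protein that accumulates in G2, was at 454 and 413 CPM in unloaded and 325 and 378 CPM in loaded libraries. The log2 fold change was -0.30 (SE 0.092, edgeR adjusted p = 0.223), and the loaded libraries differed from each other by more than those of *Cenpe*.

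*Kif11* encodes Eg5, the kinesin that pushes the spindle poles apart, and lies on chromosome 19 at 37376403 to 37421859, plus strand. It was at 294 and 280.2 CPM in unloaded and 226 and 249.2 CPM in loaded libraries, and the log2 fold change came to -0.27 (SE 0.073, edgeR adjusted p = 0.18). The promoters of *Mki67*, *Top2a* and *Kif11* are shown because their genes had among the clearest differences of the G2/M members. Each was also picked for holding the letters of a CHR element, so they do not show whether letters and differences go together. That of *Cenpe* holds no such letters and is not shown. Each line gives the 160 bases before the start of transcription in RefSeq (GRCm38.p6), 5′ to 3′ on the gene's own strand, with matches to TTTGAA or TTCGAA on either strand in capitals (TTCAAA is TTTGAA on the other strand). They cover chr7:135716380-135716539 (minus), chr11:99024190-99024349 (minus) and chr19:37376222-37376381 (plus).
Mki67: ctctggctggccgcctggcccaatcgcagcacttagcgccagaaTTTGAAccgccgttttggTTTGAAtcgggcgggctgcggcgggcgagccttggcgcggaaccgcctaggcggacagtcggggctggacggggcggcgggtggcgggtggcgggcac
Top2a: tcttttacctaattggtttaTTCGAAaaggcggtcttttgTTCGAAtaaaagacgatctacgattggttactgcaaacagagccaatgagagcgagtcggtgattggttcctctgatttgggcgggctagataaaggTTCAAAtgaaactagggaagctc
Kif11: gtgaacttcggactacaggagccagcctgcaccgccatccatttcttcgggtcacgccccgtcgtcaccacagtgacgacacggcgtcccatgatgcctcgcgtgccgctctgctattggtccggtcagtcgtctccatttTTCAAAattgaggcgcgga
The *Mki67* stretch holds 2 matches, which begin 116 and 98 bases before the start. That of *Top2a* holds 3, at 140, 120 and 23 bases, and that of *Kif11* holds 1, at 19 bases.

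The 6 genes for cyclins A, B and F, Cdk1 and FoxM1 all had negative values, with a median of -0.21. In 3 of the 6 both loaded libraries lay below both unloaded ones, beside 24.5% of all tested genes. In the other 3 the groups overlapped. *Cdk1*, the kinase that drives entry into mitosis, was at 220.1 and 211 CPM in unloaded and 211 and 212 CPM in loaded libraries. The log2 fold change was -0.030 (edgeR adjusted p = 0.882), and the loaded values sat beside the lower unloaded value. Of its partners, *Ccnb2* was at 79.1 and 77.2 CPM in unloaded and 65.0 and 60.5 CPM in loaded libraries (log2 fold change -0.32, SE 0.090, edgeR adjusted p = 0.195). *Ccnb1* overlapped between groups, at 129 and 137 CPM against 133 and 122 CPM, and 18.9% of its 75-base windows also occur in other genes, mostly pseudogenes, so reads could be shared. *Ccna2*, for cyclin A2 of S and G2 phase, was at 197 and 199.6 CPM in unloaded and 154 and 191 CPM in loaded libraries, so its log2 fold change of -0.20 came mostly from the first loaded library and was -0.054 without it. *Ccnf*, for the F-box protein cyclin F, had a log2 fold change of -0.22 with no overlap between groups.

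*Foxm1*, for the factor that activates the mitotic genes, had the lowest log2 fold change of the G2/M members, at -0.33 (SE 0.21, edgeR adjusted p = 0.534). It was at 108 and 174 CPM in unloaded and 109 and 115 CPM in loaded libraries. Only the second unloaded library stood apart, and without it the value was 0.051. The exons of *Foxm1* overlap other genes on the same strand over 241 bases, and the part of this overlap in the difference was not tested.

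The 7 members for mitotic kinases, spindle and cytokinesis had a median of -0.14. In 5 of them (71.4%) both loaded libraries lay below both unloaded ones, beside 24.5% of all tested genes. Beside *Kif11*, *Kif20a*, a kinesin of cytokinesis, had the largest difference, at 284 and 253 CPM in unloaded and 220.4 and 244 CPM in loaded libraries (log2 fold change -0.21, edgeR adjusted p = 0.347). The kinases *Plk1* and *Aurkb* had log2 fold changes of -0.14 and -0.14 without overlap, and *Tpx2*, which targets Aurora A to the spindle, had -0.16 without overlap. Without the first loaded library the values came to -0.043 for *Tpx2* and -0.078 for *Plk1*, and without the first unloaded library that of *Kif20a* came to -0.12. *Aurka* at -0.11 and *Birc5*, for survivin of the chromosomal passenger complex, at -0.0097 overlapped between groups.

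The 4 members of the spindle checkpoint and of the anaphase-promoting complex had the median nearest 0 of the G2/M roles, at -0.035. *Bub1* and *Bub1b*, for proteins of the checkpoint, had log2 fold changes of -0.13 and -0.021. *Cdc20*, the activator that the checkpoint holds in check, had -0.026, and *Ube2c*, the ubiquitin-conjugating enzyme of the same complex, had -0.044. In none of the 4 were both loaded libraries below both unloaded ones, beside 24.5% of all tested genes.

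**Figure D2:**
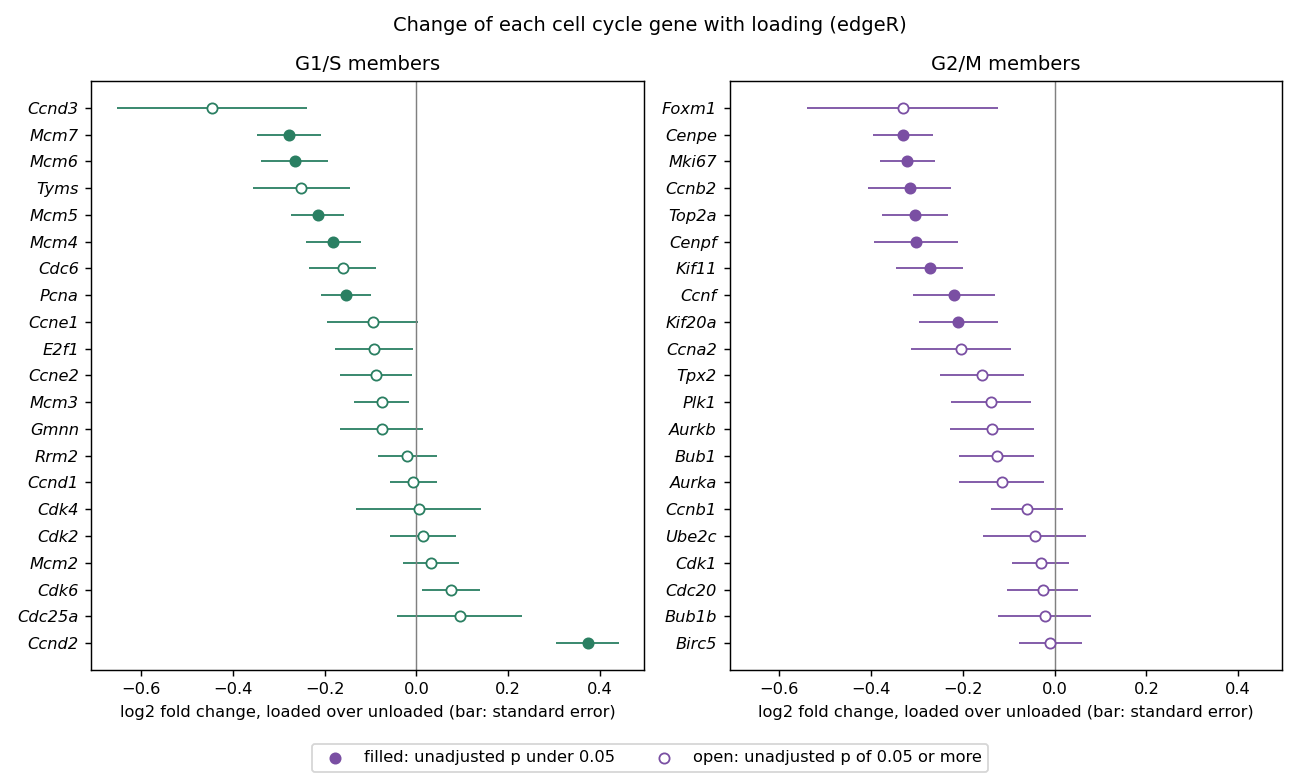
Log2 fold change of each member, loaded over unloaded (horizontal axis), with bars of 1 SE from edgeR, G1/S members on the left and G2/M members on the right. Filled points have an unadjusted p under 0.05, and none has an adjusted p under 0.01. *Ccnd2* at 0.37 is the only filled point right of 0, and 13 filled points lie left of it.

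The G1/S members had a median log2 fold change of -0.089, with 15 negative and 6 positive values from -0.45 (*Ccnd3*) to 0.37 (*Ccnd2*). In 12 (57.1%) both loaded libraries lay below both unloaded ones and in 1 above, beside 24.5% and 22.1% of all tested genes. Unadjusted p was under 0.05 with a lower value in 5 (23.8%) and with a higher value in 1, beside 7.46% and 6.88% of all tested genes. All 5 lower ones were genes of origin licensing and the replication fork.

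The D-type cyclins, which link growth signals to Cdk4 and Cdk6, are given one by one. *Ccnd2* lies on chromosome 6 at 127125162 to 127152193, minus strand, and was at 205 and 192 CPM in unloaded and 249.8 and 264 CPM in loaded libraries. Both loaded values were above both unloaded ones, the only such case among the 42 members. Means were 199 ± 8.52 and 257 ± 10.2 CPM (SD, n = 2 each), a change of 29.5%, with a log2 fold change of 0.37 (SE 0.069, DESeq2 adjusted p = 0.00118, edgeR adjusted p = 0.0916). Leaving out each library in turn gave 0.33 to 0.42.

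*Ccnd1* was the most abundant G1/S member both in CPM and per length, at 917 and 923 CPM in unloaded and 902 and 930.3 CPM in loaded libraries. The libraries of the 2 groups interleaved, with a log2 fold change of -0.0064 (SE 0.050). The mean over all libraries was 195 CPM per kb of exon for *Ccnd1*, 24.2 for *Ccnd2* and 2.98 for *Ccnd3*. *Ccnd3* was at 23.7 and 36.6 CPM in unloaded and 21.8 and 22.5 CPM in loaded libraries. Its log2 fold change of -0.45 (SE 0.21, edgeR adjusted p = 0.398) was the lowest among all members, but it was -0.097 without the second unloaded library. *Foxm1* and *Ccnd3* were thus both high in the second unloaded library, as was *Tfdp2*, for a partner of the E2F factors, at 37.2 CPM against 16.8 to 19.3 CPM in the other libraries.

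The partner kinases *Cdk4* and *Cdk6* had log2 fold changes of 0.0052 and 0.075. *Cdk4* was at 225 and 245 CPM in unloaded and 269 and 203 CPM in loaded libraries, so its 2 loaded libraries were the highest and the lowest of the 4. Of the genes of the next step, *Ccne1* and *Ccne2* for the E-type cyclins had -0.095 and -0.089, *Cdk2* had 0.014, and *Cdc25a*, the phosphatase that activates Cdk2, had 0.094. *E2f1*, for the factor released from the retinoblastoma protein, had -0.092, at 74.5 and 75.1 CPM in unloaded and 69.1 and 71.3 CPM in loaded libraries. None of these 7 had an unadjusted p under 0.05.

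Genes of the replication machinery had lower values with loading, and the 9 genes for origin licensing and the replication fork had a median of -0.16. In 8 of these 9 (88.9%) both loaded libraries lay below both unloaded ones, beside 24.5% of all tested genes. A lower value with an unadjusted p under 0.05 was seen in 5 (55.6%), beside 7.46% of all tested genes. *Mcm2* to *Mcm7* encode the 6 subunits of the MCM2-7 complex, the ring that is loaded on origins and then unwinds DNA at the fork. *Mcm7* was at 248.9 and 235 CPM in unloaded and 206 and 194 CPM in loaded libraries (log2 fold change -0.28, SE 0.069, edgeR adjusted p = 0.155). *Mcm6* was at 311 and 289 CPM in unloaded and 240.1 and 259 CPM in loaded libraries (log2 fold change -0.27, SE 0.072, edgeR adjusted p = 0.184). *Mcm5* was at 296 and 295 CPM in unloaded and 258 and 251 CPM in loaded libraries (log2 fold change -0.22, SE 0.058, edgeR adjusted p = 0.184). The change came to -17.5% for *Mcm7*, -16.8% for *Mcm6* and -13.8% for *Mcm5*, without overlap between groups.

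The other subunits of the ring had values nearer 0. *Mcm4*, the most abundant of the 6 per length at 128 CPM per kb, was at 499.8 and 476 CPM in unloaded and 421 and 439.5 CPM in loaded libraries (log2 fold change -0.18, SE 0.060, edgeR adjusted p = 0.255). *Mcm3* had -0.076 without overlap. *Mcm2* overlapped between groups, at 228 and 225 CPM in unloaded and 228 and 235 CPM in loaded libraries (log2 fold change 0.031, edgeR adjusted p = 0.872). The difference between *Mcm2* and the other subunits was not tested. The exons of *Mcm7* hold *Mir25* and *Mir93* on the same strand, and reads of these microRNA precursors could be counted with either gene.

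The promoters of *Mcm5* and *Mcm6* are shown for comparison with those above, since both hold the letters of E2F sites. Lines are as above, from chr8:75109349-75109508 (plus) and chr1:128359706-128359865 (minus), with capitals for matches to TTTCCCGC, TTTGGCGC, TTTCGCGC or TTTGGCGG on either strand. Overlapping matches run together.
Mcm5: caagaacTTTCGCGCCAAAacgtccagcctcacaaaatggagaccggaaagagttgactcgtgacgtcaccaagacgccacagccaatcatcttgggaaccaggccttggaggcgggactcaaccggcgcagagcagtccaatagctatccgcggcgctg
Mcm6: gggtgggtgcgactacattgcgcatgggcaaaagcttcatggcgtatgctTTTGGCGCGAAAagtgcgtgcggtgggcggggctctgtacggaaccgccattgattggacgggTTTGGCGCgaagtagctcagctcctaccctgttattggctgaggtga
In *Mcm5* the matches begin 153 and 149 bases before the start, and in *Mcm6* they begin 110, 106 and 47 bases before it. Neither stretch holds TTTGAA or TTCGAA, whereas promoters of *Mcm2* and *Mcm7* do, as given below.

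Of the remaining replication genes, *Pcna* encodes the clamp that holds polymerases on DNA and was at 394 and 397 CPM in unloaded and 355 and 356 CPM in loaded libraries. Means were 396 ± 1.63 and 356 ± 0.725 CPM (SD, n = 2 each), and the log2 fold change was -0.15 (SE 0.055, edgeR adjusted p = 0.291). A further 13.8% of its 75-base windows also occur in a pseudogene. *Cdc6*, which loads the MCM ring, had -0.16, and *Gmnn*, for geminin, which prevents a second round of loading, had -0.076, both without overlap between groups. Of the 2 genes of nucleotide synthesis, *Rrm2* of ribonucleotide reductase had -0.020 with overlapping groups, and *Tyms* for thymidylate synthase had -0.25 (SE 0.11) without overlap, which came to -0.15 without the second unloaded library.

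The G1/S and G2/M genes were then set side by side. The median of the G2/M members lay 0.069 below that of the G1/S members on the log2 scale. Averaged over its 21 genes, the mean log2 CPM of the G1/S list was 7.35 and 7.36 in unloaded and 7.28 and 7.27 in loaded libraries, with a pooled SD between replicates of 0.0085. That of the G2/M list was 7.56 and 7.53 in unloaded and 7.32 and 7.43 in loaded libraries, with a pooled SD of 0.054. Both lists were thus lower in both loaded libraries, and the G2/M list was the more variable between replicates.

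Within libraries, the G2/M mean exceeded the G1/S mean by 0.21 and 0.17 in unloaded cells and by 0.044 and 0.16 in loaded cells. The second loaded library was close to the unloaded ones, so the gap between the phases rested on the first loaded library. Without that library the difference of medians was -0.024, and without the second loaded library it was -0.15. It was also -0.014 when the genes of least clear phase were left out, namely *Ccna2*, *Ccnf*, *Gmnn*, *Cdk2*, *Cdk4*, *Cdk6* and the D-type cyclins. The pooled SD of this gap between replicates was 0.062, and with 2 libraries a group no separate difference of the G2/M genes was shown.

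**Figure D3:**
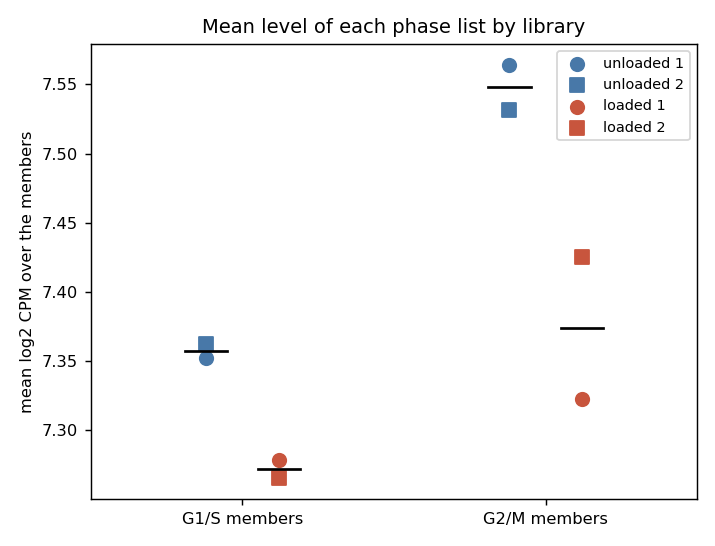
Mean log2 CPM over the 21 G1/S and the 21 G2/M members in each library (vertical axis), with a line for each group mean. Both lists are lower in the 2 loaded libraries, and the 2 loaded values of the G2/M list, 7.32 and 7.43, lie farther apart than those of the G1/S list, 7.28 and 7.27.

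The 2 loaded libraries also differed from each other. From the first to the second, 18 of 21 G2/M members were higher, with a median of 0.12 on the log2 scale, against 13 of 21 G1/S members with a median of 0.021. Between the unloaded libraries the second was higher in 5 of 21 G2/M and 8 of 21 G1/S members, with medians of -0.069 and -0.021. Summed over the list, the G2/M members took 6035 and 5714 CPM of unloaded and 4795 and 5180.0 CPM of loaded libraries.

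Other genes of the cycle were taken from lists of the same phases. Of 36 other S-phase genes, 31 had a negative log2 fold change, with a median of -0.14. None was called with edgeR or DESeq2 at an adjusted p under 0.01, and 10 (27.8%) had an unadjusted p under 0.05, all lower, beside 7.46% of all tested genes. *Dtl*, which directs destruction of the licensing factor Cdt1, was at 142 and 135 CPM in unloaded and 112 and 109 CPM in loaded libraries (log2 fold change -0.33, edgeR adjusted p = 0.129). *Dscc1*, of the complex that loads PCNA for cohesion of sister chromatids, had -0.57 (edgeR adjusted p = 0.139). The lowest value of the list was that of *Fen1*, at -1.04 (edgeR adjusted p = 0.219). It was at 55.4 and 114.6 CPM in unloaded and 41.4 and 41.2 CPM in loaded libraries. Without the second unloaded library its log2 fold change was -0.43. Among the positive values, those of smallest p were *Orc1*, of the origin recognition complex, whose log2 fold change was 0.12 (edgeR adjusted p = 0.618), and the helicase gene *Blm*, whose log2 fold change was 0.078 (edgeR adjusted p = 0.78).

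Of 44 other G2/M genes, 37 were negative, with a median of -0.12. None was called with edgeR or DESeq2 at 0.01, while 5 (11.4%) had an unadjusted p under 0.05 with a lower and 1 with a higher value, beside 7.46% and 6.88% of all tested genes. *Ndc80*, the microtubule hook of the kinetochore, was at 128 and 129 CPM in unloaded and 104 and 106 CPM in loaded libraries (log2 fold change -0.29, edgeR adjusted p = 0.15). *G2e3*, a ubiquitin ligase expressed in G2 and mitosis, had -0.32 (edgeR adjusted p = 0.152). The highest value of the list was that of *Gas2l3*, at 0.60 (edgeR adjusted p = 0.622). It lay at 31.8 CPM in the first unloaded library and at 99.4 to 103.65 CPM in the others. Without that library its log2 fold change was 0.0051. *Ect2*, the exchange factor that starts cytokinesis, was higher at 92.1 and 104 CPM in loaded against 84.9 and 75.8 CPM in unloaded libraries (log2 fold change 0.29, edgeR adjusted p = 0.291), and *Lbr* of the nuclear envelope had 0.0997.

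Of 13 genes for brakes of the cycle, 10 had enough counts to be tested, with a median of -0.16. Negative values were seen in 8 of the 10, beside 51.5% of all tested genes. Unadjusted p was under 0.05 with a lower value in 1, beside 7.46% of all tested genes. Neither edgeR nor DESeq2 called any at 0.01. *Cdkn1a* and *Cdkn1b*, for the inhibitors p21 and p27, had log2 fold changes of 0.092 and 0.083, with *Cdkn1a* at 324 and 347 CPM in unloaded and 376 and 339 CPM in loaded libraries. *Rbl2*, for the retinoblastoma relative p130 of resting cells, was at 42.04 and 40.1 CPM in unloaded and 29.97 and 29.7 CPM in loaded libraries (log2 fold change -0.46, SE 0.095, edgeR adjusted p = 0.117). *Rb1* itself had -0.23 (edgeR adjusted p = 0.377). *Cdkn1c* and *Cdkn2b* had 0 counts in all 4 libraries, and *Cdkn2a* had at most 6. The 14 E2F and MuvB factors divided evenly, with 7 negative and 7 positive values. Their median was 0.026 against a mean of -0.064. A lower value with an unadjusted p under 0.05 was seen in 1 (7.14%), beside 7.46% of all tested genes, and neither tool called any. They ran from *Tfdp2* at -0.73 (edgeR adjusted p = 0.333) to *E2f5* at 0.31 (edgeR adjusted p = 0.559). Between them were *Lin54* at -0.36 and *Lin52* at 0.20, of the MuvB complex.

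**Figure D4:**
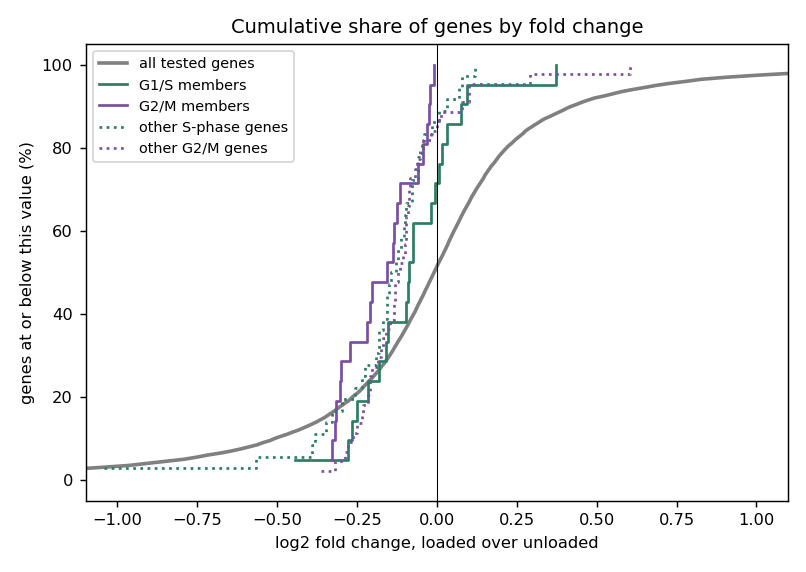
Share of genes at or below each log2 fold change, loaded over unloaded, for the G1/S and G2/M members, the other S-phase and other G2/M genes, and all tested genes (grey). The 4 cell cycle lists run left of the grey line over most of its middle part, with medians of -0.089, -0.16, -0.14 and -0.12 against -0.0089, and they reach less far to either side.

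The members were also described by their promoters, which the choice by name did not use. RefSeq promoter windows, from 250 bases before to 50 bases after the start (GRCm38.p6), were at hand for 32 members, 16 of each phase. The CHR letters TTTGAA or TTCGAA, on either strand, occurred in 13 of 16 G2/M members (81.2%), 2 of 16 G1/S members (12.5%) and 21.7% of all genes with a window. The E2F letters given above occurred in 7 of 16 G1/S members (43.8%), 1 of 16 G2/M members (6.25%) and 2.7% of all genes. CCAAT on either strand, the letters bound by NF-Y, occurred in 15 of 16 G2/M members (93.8%), 10 of 16 G1/S members (62.5%) and 41.1% of all genes. The other lists had the same order, with CHR letters in 69.2% of 39 other G2/M genes and 19.2% of 26 other S-phase genes, and E2F letters in 7.69% and 38.5%.

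A match describes letters and is not evidence of a bound site. The G2/M windows without CHR letters were those of *Cenpe* (log2 fold change -0.33), *Ccnb1* (-0.060) and *Birc5* (-0.0097). Windows with them included those of *Mki67* (-0.32) and *Top2a* (-0.30), but also *Cdc20* (-0.026), *Ube2c* (-0.044) and *Bub1b* (-0.021). The 2 G1/S members with CHR letters were *Mcm2* (log2 fold change 0.031) and *Mcm7* (-0.28). The window of *Mcm7* that holds them also holds E2F letters. Any relation between letters and differences was not tested. The 1 G2/M member with E2F letters was *Cdk1*, whose window also holds CHR letters, in the stretch chr10:69352913-69353072 (minus), with E2F and CHR matches in capitals.
Cdk1: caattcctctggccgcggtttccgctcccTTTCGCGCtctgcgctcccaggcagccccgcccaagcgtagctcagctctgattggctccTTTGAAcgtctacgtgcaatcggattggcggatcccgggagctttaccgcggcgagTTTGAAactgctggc
The E2F match begins 131 bases before the start and the CHR matches 71 and 15 bases before it. *Cdk1* was among the G2/M members with the least difference between groups, as were *Birc5*, *Bub1b* and *Cdc20*, whose windows hold no E2F letters.

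The log2 fold changes were compared with exon length, since the count of a long gene is higher at the same level. Within the G2/M members, longer genes had the lower values, with a Spearman rho of -0.56 and a Pearson r of -0.54 with log10 length (n = 21 genes). Within the G1/S members rho was 0.24, over all 42 members it was -0.19, and over all tested genes it was -0.038. Genes are not independent replicates, so these values are a description. *Mki67*, *Cenpe*, *Cenpf* and *Top2a* were among the long genes, and *Birc5*, *Cdc20* and *Ube2c* among the short ones. The shortest G2/M member, *Ccnb2*, went against this order with -0.32, and the part of length in these differences was not tested.

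**Figure D5:**
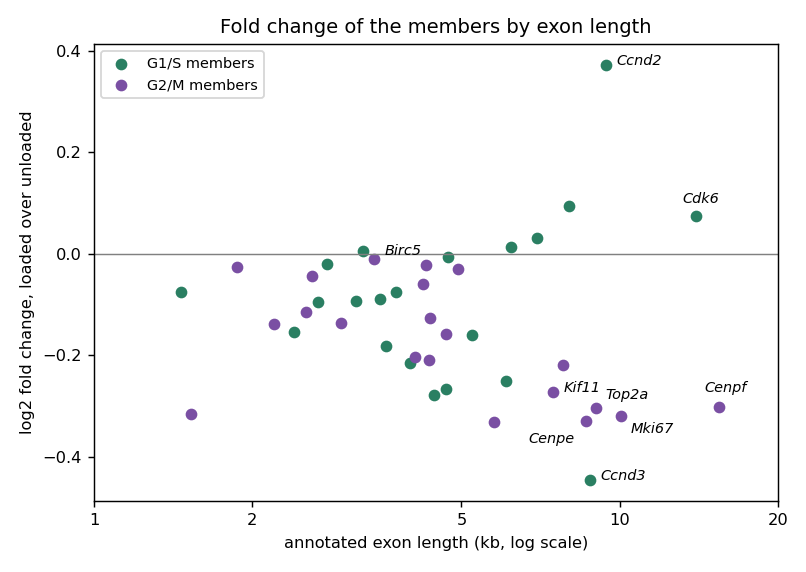
Log2 fold change, loaded over unloaded, of the 42 members against the length of their exons in kb (log axis). Among G2/M members, longer genes tend to lie lower, with a Spearman rho of -0.56, against 0.24 among G1/S members.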

How the data were processed

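RNA-seq counts of 2 unloaded and 2 loaded samples were grouped by the titles and treatment records in the labels. The authors mapped reads with HISAT2 2.1.0 and assembled them with StringTie 1.3.5, per the submitters' processing notes, and the deposited values are counts per gene without normalization. Such counts are derived from transcript coverage, and reads shared by overlapping or similar genes may be divided between them. The library strandedness is not given in the sources used here. All 55450 gene identifiers matched GENCODE M21 (GRCm38), which gave coordinates and exon lengths.

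Members and lists were chosen with earlier results of these data known. Named genes were all 42 members, the marker genes and, from each of 4 further lists, the genes called or else the 2 of smallest p in each direction. *Fen1* and *Gas2l3* were added for the lowest and the highest value of their lists. Libraries were filtered with filterByExpr (count minimum 10), TMM-scaled and compared by the quasi-likelihood F test of edgeR 4.0.16 under R 4.3.3, with Benjamini-Hochberg adjustment over 16269 genes. The SE was the log2 fold change divided by the square root of F. Mean log2 CPM used a prior count of 2. The procedure was tested on simulated data. Alternatives were DESeq2 1.42.0, limma-voom (limma 3.58.1), other scalings, filters and thresholds, a replicate block, and leaving out each library. Same-numbered libraries had a correlation of deviations of -0.057 across genes and were not treated as pairs. The labels name no batch. Promoters came from RefSeq (GRCm38.p6), and letters were searched on both strands. Total counts were 28941994 to 32185693 per library.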

Additional observations from a re-analysis of the deposited data

How the results depend on the processing

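With 2 libraries a group, differences of the size seen here could not be separated from replicate spread by edgeR, and the call of a member depended on the tool. DESeq2 called 1 member higher and 2 lower where edgeR, limma-voom and each scaling, filter and replicate block called 0, and the cause was not tested. With the replicate block, which rests on sample numbers alone, the smallest adjusted p of a member was 0.231, the G2/M median was -0.16 and the difference of medians was -0.073. The G1/S median was -0.080 with RLE scaling and -0.12 without the genes of unclear phase. Leaving out each library in turn, it ranged from -0.087 to -0.076, the G2/M median from -0.23 to -0.11 and the difference from -0.15 to -0.024. With a library left out, the lone sample is assumed to vary like the other group. Without 1 unloaded library, 1 other S-phase gene was called lower or 1 other G2/M gene higher, against 0 with all 4. Leaving out members whose exons overlap other genes, an alternative chosen after seeing the data, gave a difference of -0.041. Without *Ccnd2* the G1/S median was -0.090, and without the 5 G2/M members of smallest p that of G2/M was -0.13, both also chosen after seeing the data. *Ccnd1* reversed to 0.0012 with DESeq2 and 0.0027 with RLE scaling, and *Cdk4* to -0.0055 with limma-voom and -0.0079 with the replicate block. When a library was left out, 11 members changed sign, and the ranges were -0.030 to 0.018 for *Ccnd1*, -0.21 to 0.19 for *Cdk4*, -0.016 to 0.045 for *Cdk2*, -0.086 to 0.26 for *Cdc25a*, -0.066 to 0.027 for *Rrm2*, -0.060 to 0.0071 for *Cdk1*, -0.63 to 0.051 for *Foxm1*, -0.025 to 0.0076 for *Birc5*, -0.11 to 0.083 for *Bub1b*, -0.098 to 0.045 for *Cdc20*, -0.21 to 0.11 for *Ube2c* and, of the other S-phase genes, -0.012 to 0.18 for *Blm*.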
